A study of Mus musculus with 12 samples.

Results

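The platelet-derived growth factor (PDGF) genes of the mouse comprise 4 ligand genes (Pdgfa, Pdgfb, Pdgfc and Pdgfd) and 2 receptor genes (Pdgfra and Pdgfrb). Each was taken by its symbol from the bulk RNA-seq tables of the study, which list 52636 genes, and each of the 6 symbols matched 1 row. The transcript levels were followed in 12 libraries, 3 for each of 4 groups: airway smooth muscle cells (SMCs) or PDGFR-β+ cells of the lung, given either a scrambled control RNA (Scr) or a small interfering RNA to Klf4 (siKlf4). KLF4 is a zinc-finger transcription factor that controls cell identity in mural cells. The SMCs were commercial C57BL/6 cells from CellBiologics, named lung airway SMCs in the sample titles and tracheal smooth muscle cells in the source label, with no age given. The PDGFR-β+ cells came from lungs of 12-week-old animals labelled C57BL/6, and the study describes them as reporter-positive cells sorted from tamoxifen-induced mice in which the Pdgfrb promoter drives CreERT2. Thus activity of the Pdgfrb promoter selected these cells, and a high Pdgfrb level in them is no finding. They were cultured before treatment, and cells whose promoter had since fallen silent would still carry the reporter. In the labels, Scr libraries of both cell types carry the genotype WT and siKlf4 libraries the genotype Klf4 KD, and within a cell type no other allele or agent separates siKlf4 from Scr. The reporter alleles and tamoxifen of the PDGFR-β+ cells are not described for the SMCs, so they go with cell type in every comparison between cell types. How many animals contributed to a library is not given in the sources used here, and p-values measure the spread between the libraries of a group, which the study calls independent experiments.

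PDGF ligands are secreted dimers. PDGF-A and PDGF-B are cut to their active form inside the cell, whereas PDGF-C and PDGF-D leave the cell with a CUB domain that proteases such as plasminogen activators remove. PDGFR-α binds the A, B and C chains and PDGFR-β binds mainly the B and D chains, and ligand binding joins receptor chains into dimers that phosphorylate each other and recruit PI3-kinase, phospholipase C-γ, SRC-family kinases and the RAS-MAPK pathway. In the lung, PDGF-A acting on PDGFR-α is required for alveolar myofibroblasts to form, and PDGF-B from endothelium acting on PDGFR-β recruits pericytes and smooth muscle cells to vessels.

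The sequence before the start of a ligand gene is shown for Pdgfa and Pdgfc because these are the ligands whose level differed with siKlf4 in 1 cell type, and because KLF4 is known to bind CACCC elements and GC-rich DNA. No binding of KLF4 was measured in these data. The sequences come from RefSeq on the GRCm38 build (mm10), 4 of the 6 members matched the table of starts, and Pdgfb and Pdgfrb did not. Each sequence is written 5′ to 3′ on the strand of its gene, with CACCC or its reverse complement GGGTG in capitals. Pdgfa has 2 listed starts, and the window before the downstream one, chr5:138994282-138994531 on the reverse strand, lies within an intron of protein-coding transcripts and partly over an exon of a non-coding one. The stretch before the upstream start, chr5:138995038-138995194 on the reverse strand, is cut where the annotated exon begins. It too lies within the annotated span of the gene, whose upstream end is at 138997370. The Pdgfc window is chr3:81036166-81036415 on the forward strand.
Pdgfa, downstream start: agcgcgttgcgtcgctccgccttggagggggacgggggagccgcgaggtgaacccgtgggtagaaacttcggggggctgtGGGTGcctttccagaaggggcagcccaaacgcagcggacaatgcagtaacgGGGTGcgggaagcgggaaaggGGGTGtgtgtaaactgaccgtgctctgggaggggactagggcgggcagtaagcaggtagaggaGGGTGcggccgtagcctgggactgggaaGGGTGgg
Pdgfa, upstream start: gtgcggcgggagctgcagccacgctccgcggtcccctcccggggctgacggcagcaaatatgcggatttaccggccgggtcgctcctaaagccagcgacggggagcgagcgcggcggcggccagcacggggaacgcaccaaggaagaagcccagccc
Pdgfc: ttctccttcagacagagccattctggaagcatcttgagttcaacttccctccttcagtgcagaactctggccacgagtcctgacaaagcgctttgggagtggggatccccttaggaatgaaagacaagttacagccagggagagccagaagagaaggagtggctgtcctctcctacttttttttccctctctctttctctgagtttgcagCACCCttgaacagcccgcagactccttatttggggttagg
The window of 250 bases before the downstream Pdgfa start held 5 matches to CACCC on either strand, and the 250 bases before the upstream start held 1, which lies outside the printed stretch. Pdgfc held 1 match, Pdgfra 2 and Pdgfd 0. For Pdgfra and Pdgfd the bases after the listed start were not found in an annotated transcript of the gene. Their windows end at 75152250 and 6168485, ahead of the annotated genes at 75152292 and 6168584. The motif is common, since 52.0% of the 32851 windows of this length in the table hold it on either strand. This share covers windows with at least 1 match, and how often a window holds 5 was not examined. A GC box, GGGCGG or its reverse complement CCGCCC, which can share bases with CACCC, was found 2 times before the upstream and 1 time before the downstream Pdgfa start and in no window of the other matched members, against 32.7% of all windows. A match describes letters in a window and says nothing about occupancy.

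Levels were deposited as TPM, transcript abundances corrected for transcript length and brought to 1 common total per library, so levels of different genes can be compared within a library. Between 20590 and 21780 genes were above 0 TPM in a library. Klf4 itself measured 89.6, 96.3 and 95.03 TPM under Scr, against 26.5, 16.3 and 18.8 TPM under siKlf4 in SMCs, so 21.9% of its mean was left. In PDGFR-β+ cells Klf4 measured 144, 146 and 134 TPM under Scr, against 12.3, 13.8 and 12.8 TPM under siKlf4, and 9.16% was left. A replicate number is missing from the names of 2 SMC columns, 1 of Scr and 1 of siKlf4, and these libraries stood apart from the 4 numbered ones: the deviations of the unnumbered Scr and siKlf4 library from their group means correlated at 0.36 over genes. Those of the replicates 2 correlated at 0.19 and those of the replicates 3 at 0.20, against at most 0.050 for any other Scr and siKlf4 library of SMCs, so SMC results that change when these are taken as 3 pairs are also given that way. In every list of SMC values here, the unnumbered library is given before replicates 2 and 3, and results that change without the unnumbered libraries are given both ways. PDGFR-β+ values are given in the order of replicates 1 to 3.

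With Scr, the receptors were far above the ligands in both cell types. In SMCs the order was Pdgfra at 417 ± 81.9 TPM (SD, n = 3), Pdgfrb at 214 ± 1.52 TPM, Pdgfc at 37.6 ± 5.99 TPM, Pdgfa at 30.3 ± 1.39 TPM, Pdgfd at 15.8 ± 0.631 TPM and Pdgfb at 0.169 ± 0.0992 TPM. In PDGFR-β+ cells the order was Pdgfrb at 447 ± 25.5 TPM (SD, n = 3), Pdgfra at 169 ± 15.7 TPM, Pdgfa at 42.3 ± 2.36 TPM, Pdgfd at 33.6 ± 7.67 TPM, Pdgfc at 21.2 ± 1.43 TPM and Pdgfb at 0.120 ± 0.0724 TPM. No neighbours in either order overlapped in range. The cells labelled SMC thus held more Pdgfra than Pdgfrb RNA, and the PDGFR-β+ cells the reverse. Pdgfra in the Scr-treated SMCs ranked between 263 and 379 from the top among all listed genes, and Pdgfrb in the Scr-treated PDGFR-β+ cells between 308 and 328. Pdgfb, whose product is the main ligand of PDGFR-β in vessels, ranked between 17025 and 20556 in the 6 Scr libraries.

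The order of ligands was not the same under siKlf4. In siKlf4-treated SMCs Pdgfa, at 49.1 ± 0.609 TPM (SD, n = 3), stood above Pdgfc at 35.6 ± 5.96 TPM, with no overlap of the ranges. In siKlf4-treated PDGFR-β+ cells Pdgfc at 25.7 ± 0.845 TPM (SD, n = 3) and Pdgfd at 24.3 ± 5.99 TPM overlapped. Across the 4 groups, whose cell types are in separate tables and were not tested against each other, Pdgfa was highest in siKlf4-treated SMCs, followed by PDGFR-β+ cells with Scr and with siKlf4, which overlapped, and was lowest in Scr-treated SMCs. Pdgfrb was highest in PDGFR-β+ Scr libraries, then PDGFR-β+ siKlf4, SMC Scr and SMC siKlf4, with no overlap between neighbours. For Pdgfra both SMC groups overlapped and lay above both PDGFR-β+ groups, which also overlapped. For Pdgfc both SMC groups overlapped and lay above the PDGFR-β+ groups, and for Pdgfd both PDGFR-β+ groups overlapped and lay above the SMC groups. For Pdgfb each neighbour in the order overlapped the next.

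**Figure D1:**
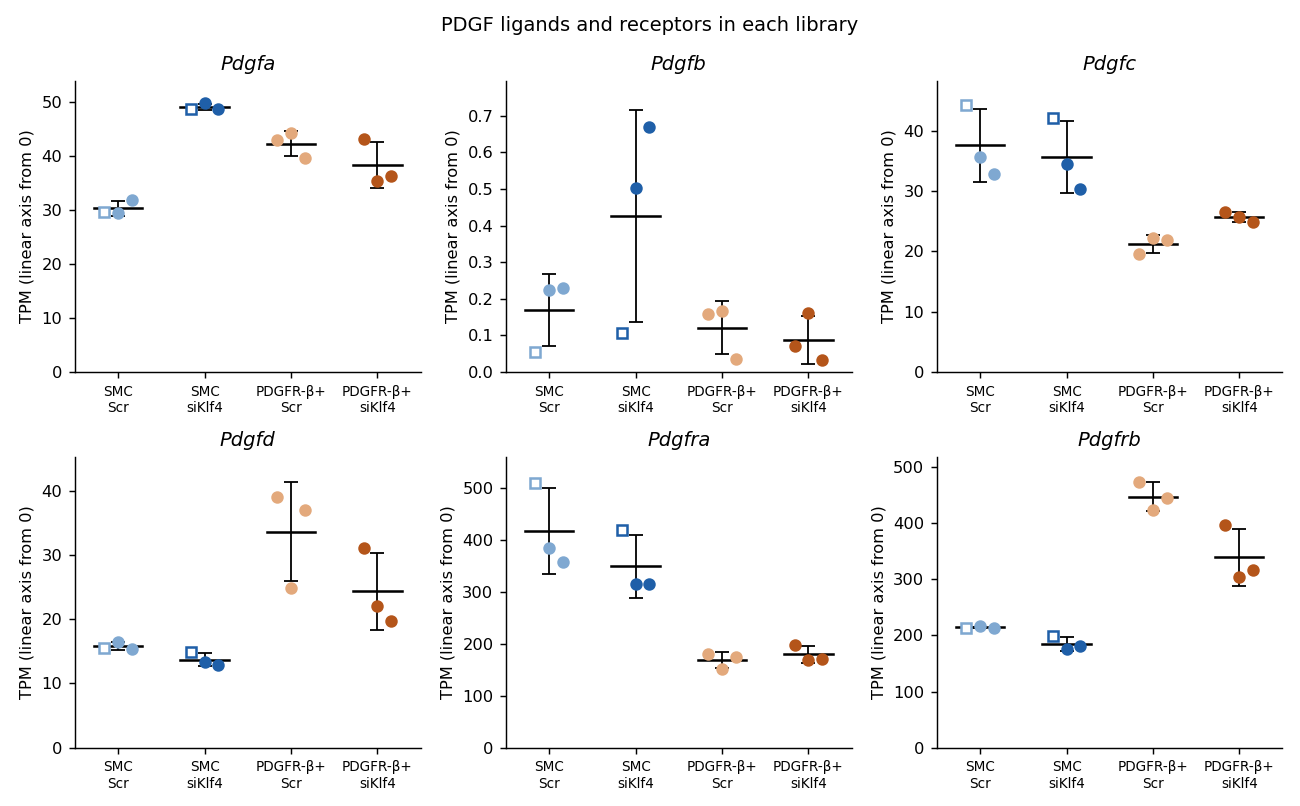
TPM (linear axis from 0) of the 6 PDGF genes in SMCs (blue) and PDGFR-β+ cells (orange) treated with Scr (light) or siKlf4 (dark). Each symbol is 1 library, open squares are the SMC libraries with no replicate number, and the line and bar are the mean and SD of 3 libraries. Pdgfa in SMCs lies at a mean of 30.3 TPM under Scr and 49.1 TPM under siKlf4, Pdgfrb in PDGFR-β+ cells at 447 and 339 TPM, neither with overlap, and Pdgfb is at most 0.669 TPM in any library.

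siKlf4 and Scr libraries were compared within each cell type with limma on log2(TPM + 1), leaving out genes whose mean was under 1 TPM, and p-values were adjusted over all genes tested by the Benjamini-Hochberg method with a threshold of 0.05. Pdgfb did not reach this mean, so 5 of the 6 members were tested. In SMCs 1 of the 5 was called, higher (Pdgfa), where 28.5% of all 13709 genes tested were called, 15.6% as higher and 12.9% as lower. In PDGFR-β+ cells 2 of the 5 were called, 1 higher (Pdgfc) and 1 lower (Pdgfrb), where 40.6% of all 13694 genes tested were called, 25.3% as higher and 15.3% as lower. Higher calls made up 62.3% of these, and 48.2% after median-ratio scaling. The groups did not overlap for 3 of the 5 in SMCs (Pdgfa, Pdgfd and Pdgfrb), against 47.1% of all genes tested, and for 2 of the 5 in PDGFR-β+ cells (Pdgfc and Pdgfrb), against 53.8%. The shares of members called were near those of all genes. The median log2 fold change of the 5 was -0.19 in SMCs and -0.14 in PDGFR-β+ cells, beside 0.017 and 0.097 over all genes tested. In bulk libraries, fewer cells that express a gene and less of its RNA per cell cannot be told apart.

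Pdgfa, the ligand of PDGFR-α that drives alveolar myofibroblasts, rose in SMCs with siKlf4. It measured 29.6, 29.4 and 31.9 TPM under Scr, against 48.7, 49.8 and 48.7 TPM under siKlf4. The siKlf4 libraries were all above the Scr libraries, the spread within a group was small beside the gap, and the unnumbered libraries did not differ from the others. The log2 fold change was 0.68 (SE 0.069, 95% interval 0.52 to 0.84, adjusted p = 0.00143, limma), a 1.60-fold rise on the log2(TPM + 1) scale. In the numbered libraries alone it was 0.67 (adjusted p = 0.00650, limma), and it stayed past the threshold in each of the 11 alternatives (adjusted p from 1.8e-04 to 0.0213) and in each of the 6 fits without 1 library. In PDGFR-β+ cells Pdgfa measured 42.9, 44.3 and 39.7 TPM under Scr, against 43.1, 35.3 and 36.4 TPM under siKlf4. Here siKlf4 replicate 1 lay among the Scr libraries, and the log2 fold change of -0.14 (SE 0.097, 95% interval -0.37 to 0.082, adjusted p = 0.272, limma) did not pass.

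Pdgfc, whose product is secreted in a latent form and acts on PDGFR-α, did not pass in SMCs and was higher with siKlf4 in PDGFR-β+ cells. In SMCs it measured 44.3, 35.6 and 32.8 TPM under Scr, against 42.1, 34.5 and 30.3 TPM under siKlf4. The unnumbered library was the highest of both groups, and the groups overlapped (log2 fold change -0.075, 95% interval -0.43 to 0.28, adjusted p = 0.736, limma). In PDGFR-β+ cells it measured 19.6, 22.2 and 21.9 TPM under Scr, against 26.6, 25.7 and 24.9 TPM under siKlf4. All 3 siKlf4 libraries were above all 3 Scr libraries, and the log2 fold change was 0.27 (SE 0.083, adjusted p = 0.0363, limma), a 1.20-fold rise. This call was lost after median-ratio scaling (log2 fold change 0.17, adjusted p = 0.144), and with 1 library left out it held without Scr replicate 2 (adjusted p = 0.0406) but not without any of the other 5 (0.0553 to 0.117). The range over the 8 alternatives was 0.0311 to 0.144.

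Pdgfd, the other CUB-domain ligand and a ligand of PDGFR-β, did not pass in either cell type. In SMCs it measured 15.5, 16.5 and 15.4 TPM under Scr, against 14.8, 13.3 and 12.9 TPM under siKlf4. The groups did not overlap, with a log2 fold change of -0.19 (95% interval -0.41 to 0.019, adjusted p = 0.1497, limma). In PDGFR-β+ cells it measured 39.0, 24.8 and 37.0 TPM under Scr, against 31.1, 22.1 and 19.7 TPM under siKlf4. Scr replicate 2 lay well below the other Scr libraries and siKlf4 replicate 1 well above the other siKlf4 libraries, so the groups overlapped (log2 fold change -0.45, 95% interval -0.95 to 0.046, adjusted p = 0.129, limma). Without Scr replicate 2 the log2 fold change was -0.65 (adjusted p = 0.0353), and leaving out siKlf4 replicate 1 gave -0.63 (adjusted p = 0.0497).

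Pdgfb was under 1 TPM in every library. In SMCs it measured 0.0549, 0.224 and 0.230 TPM under Scr, against 0.106, 0.503 and 0.669 TPM under siKlf4. The unnumbered library was the lowest of both groups, and the groups overlapped (two-sided exact permutation test, p = 0.3). In PDGFR-β+ cells it measured 0.158, 0.166 and 0.0369 TPM under Scr, against 0.0702, 0.161 and 0.0318 TPM under siKlf4, again with overlap (exact permutation test, p = 0.6). TPM keep no record of sequencing depth, so the counting error at these levels is unknown, and no fold change is given. Its group means of 0.0876 to 0.426 TPM are low beside those of Pdgfd, the other ligand of PDGFR-β, at 13.7 to 33.6 TPM.

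Pdgfrb, the receptor for the B and D chains that marks mural cells and many fibroblasts, fell in PDGFR-β+ cells with siKlf4. It measured 474, 423 and 444 TPM under Scr, against 397, 304 and 317 TPM under siKlf4. All siKlf4 libraries were below all Scr libraries, replicate 1 was the highest of both groups, and 75.9% of the mean was left. The log2 fold change was -0.41 (SE 0.11, 95% interval -0.66 to -0.15, adjusted p = 0.0218, limma). The adjusted p lay between 0.00490 and 0.0569 over the 8 alternatives, with the call lost when no filter on low values was used. With 1 library left out, the call held without Scr replicate 2 (adjusted p = 0.0325) and without siKlf4 replicate 1 (0.00417). It was lost without Scr replicate 1 (0.0718), Scr replicate 3 (0.0520), siKlf4 replicate 2 (0.0744) or siKlf4 replicate 3 (0.0746).

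In SMCs Pdgfrb measured 213, 216 and 213 TPM under Scr, against 199, 175 and 182 TPM under siKlf4. The Scr libraries were nearly equal and each siKlf4 library was below them, with the unnumbered siKlf4 library nearest to the Scr level. The log2 fold change of -0.21 (SE 0.068, 95% interval -0.37 to -0.050) had an adjusted p of 0.0566 (limma), just outside the threshold. In the numbered libraries alone it was -0.27 (adjusted p = 0.0175), and with a term that separates numbered from unnumbered libraries (the naming term) the adjusted p was 0.0243. With the libraries as 3 pairs, each lower under siKlf4, the adjusted p was 0.0483. It was past the threshold in 6 of the 11 alternatives (adjusted p from 0.0175 to 0.112) and without the unnumbered siKlf4 library (0.0304).

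Pdgfra, the receptor for the A, B and C chains and a marker of lung fibroblasts, did not pass in either cell type in the main fit. In SMCs it passed as lower in 3 of the 11 alternatives. In SMCs it measured 511, 384 and 357 TPM under Scr, against 419, 314 and 315 TPM under siKlf4. The unnumbered library was the highest of each group, and that of siKlf4 exceeded both numbered Scr libraries. Over all libraries the log2 fold change was -0.25 (SE 0.16, 95% interval -0.64 to 0.14, adjusted p = 0.288, limma). Among the numbered libraries the groups were separate, with a log2 fold change of -0.24 (adjusted p = 0.0333), and with the naming term the adjusted p was 0.00843. With the libraries as 3 pairs, each lower under siKlf4, the log2 fold change was -0.25 (adjusted p = 0.0187). The replicate block over the numbered libraries gave -0.24 and did not pass (adjusted p = 0.0561). The adjusted p ranged from 0.00843 to 0.452 over the 11 alternatives. In PDGFR-β+ cells Pdgfra measured 180, 151 and 175 TPM under Scr, against 199, 169 and 171 TPM under siKlf4. The ranges overlapped, and the log2 fold change was 0.090 (95% interval -0.14 to 0.32, adjusted p = 0.495, limma), and -0.011 after median-ratio scaling.

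**Figure D2:**
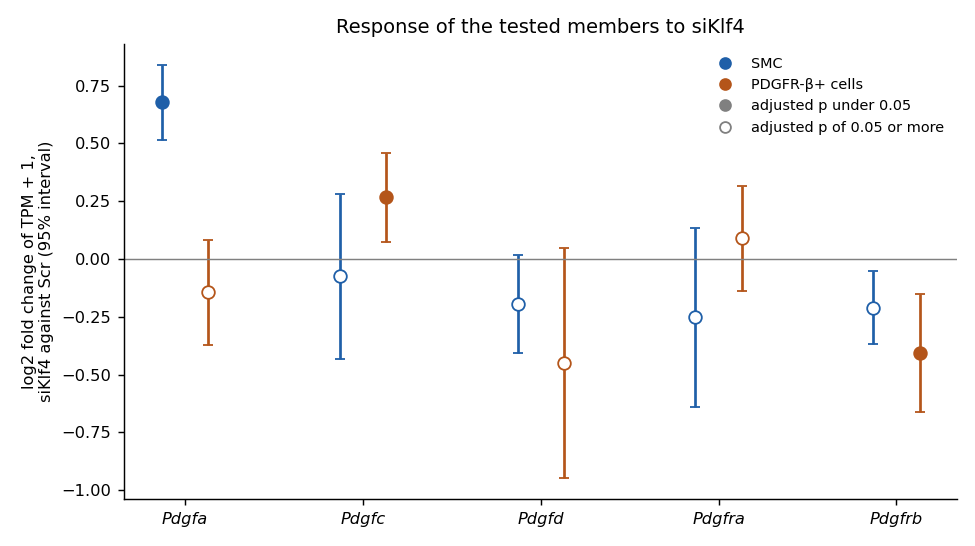
Log2 fold change of TPM + 1, siKlf4 against Scr, for the 5 PDGF genes tested in SMCs (blue) and PDGFR-β+ cells (orange), with 95% intervals from limma over 6 libraries each. Filled points passed an adjusted p under 0.05: Pdgfa in SMCs at 0.68, Pdgfc in PDGFR-β+ cells at 0.27 and Pdgfrb in PDGFR-β+ cells at -0.41.

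Whether the response to siKlf4 differed between the cell types was tested with an interaction term over the 12 libraries. It passed for 1 of the 5 members, Pdgfa, where 33% of the 13032 genes tested passed. Of those, 43.9% had the higher log2 fold change in SMCs, and 54.3% after median-ratio scaling. The log2 fold change of Pdgfa in SMCs exceeded that in PDGFR-β+ cells by 0.82 (SE 0.12, 95% interval 0.57 to 1.08, adjusted p = 3.3e-04, limma). This difference passed in each of the 11 alternatives and each of the 12 fits without 1 library. For Pdgfrb the difference, SMC minus PDGFR-β+, was 0.20 (95% interval -0.098 to 0.49, adjusted p = 0.284), so that a fall of like size in both cell types and a deeper fall in PDGFR-β+ cells are both within its interval. Without PDGFR-β+ siKlf4 replicate 1 it was 0.32 (adjusted p = 0.0361). The differences of Pdgfc (-0.34, adjusted p = 0.167), Pdgfra (-0.34, adjusted p = 0.226) and Pdgfd (0.26, adjusted p = 0.461) did not pass. With the naming term, those of Pdgfc (adjusted p = 0.0263) and Pdgfra (adjusted p = 0.0395) passed, as they did with libraries of both cell types as pairs (0.0301 and 0.0148).

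A ratio of a pair of genes within a library does not depend on how that library was scaled. The ratio of Pdgfra to Pdgfrb was 1.95 ± 0.389 (SD, n = 3) with Scr and 1.88 ± 0.196 with siKlf4 in SMCs, which overlapped (two-sided exact permutation test of the log2 ratio, p = 0.9). In PDGFR-β+ cells it was 0.377 ± 0.0191 with Scr, from 0.357 to 0.394, and 0.533 ± 0.0292 with siKlf4, from 0.5001 to 0.557. The ratio was higher in all 3 siKlf4 libraries, by 0.50 on the log2 scale (exact permutation test, p = 0.1, the smallest that 3 against 3 allows, and 0.133 adjusted over the 4 ratio tests). The ratio of Pdgfa to Pdgfc was higher under siKlf4 in SMCs and, in PDGFR-β+ cells, lower. In SMCs it was 0.823 ± 0.153 with Scr, from 0.668 to 0.973, and 1.402 ± 0.227 with siKlf4, from 1.16 to 1.61. In PDGFR-β+ cells it was 2.00 ± 0.187 with Scr, from 1.81 to 2.19, and 1.49 ± 0.126 with siKlf4, from 1.38 to 1.62. Neither pair of groups overlapped (exact permutation test, p = 0.1 in each, 0.133 adjusted).

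**Figure D3:**
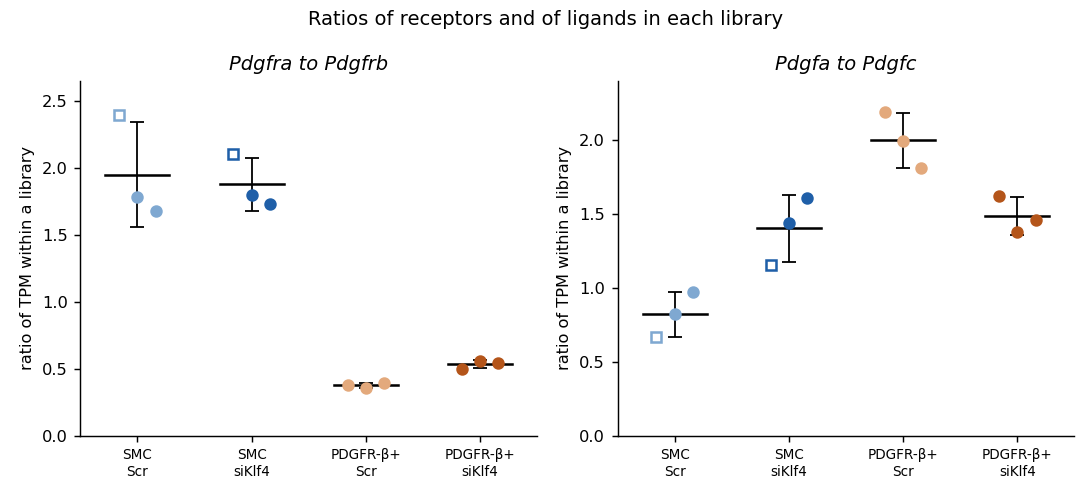
Ratio of TPM within each library for Pdgfra to Pdgfrb (left) and Pdgfa to Pdgfc (right), with SMCs in blue and PDGFR-β+ cells in orange, Scr light and siKlf4 dark. Each symbol is 1 library, open squares are the SMC libraries with no replicate number, and line and bar are the mean and SD of 3 libraries. The receptor ratio of PDGFR-β+ cells has a mean of 0.377 under Scr and 0.533 under siKlf4 with no overlap, and the ligand ratio is higher under siKlf4 in SMCs but lower under it in PDGFR-β+ cells.

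Summed over genes, the ligands measured 83.8 ± 4.89 TPM (SD, n = 3) with Scr and 98.8 ± 6.59 TPM with siKlf4 in SMCs, with no overlap (exact permutation test, p = 0.1). Pdgfa made up 36.3% of this sum with Scr and 49.8% with siKlf4. In PDGFR-β+ cells the ligand sum was 97.2 ± 5.18 TPM with Scr and 88.4 ± 10.9 TPM with siKlf4, which overlapped, and Pdgfa made up 43.6% and 43.4%. The sum of both receptors was 632 ± 81.3 TPM with Scr and 535 ± 72.4 TPM with siKlf4 in SMCs and 616 ± 40.2 TPM and 519 ± 67.4 TPM in PDGFR-β+ cells, overlapping in each. Pdgfra made up 65.7% of the receptor sum with Scr and 65.1% with siKlf4 in SMCs, and 27.4% and 34.7% in PDGFR-β+ cells.

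Around these members, 7 lists with 102 other genes of the pathway were examined, of which 96 could be tested in each cell type. In SMCs 28 were higher and 5 lower with siKlf4 (median log2 fold change 0.19, beside 0.017 for all genes tested), and in the numbered libraries alone 33 were higher and 10 lower. In PDGFR-β+ cells 28 were higher and 17 lower (median 0.17, beside 0.097). Of all genes tested, 15.6% were higher and 12.9% lower in SMCs, and 25.3% and 15.3% in PDGFR-β+ cells. The shares of the 96 in PDGFR-β+ cells were near these. The counts of each pathway and marker list below are to be read beside the same shares, and no list was tested as a set. Among the relatives of the ligands, Vegfd, a lymphatic growth factor, fell in SMCs from 1454 ± 263 to 688 ± 160 TPM (SD, n = 3, log2 fold change -1.09, adjusted p = 0.00663, limma), and Pgf, a ligand of FLT1, rose from 8.25 to 12.0 TPM (0.49, adjusted p = 0.0451). In PDGFR-β+ cells Vegfc rose from 21.0 to 29.6 TPM (0.47, adjusted p = 0.0435). Of the 5 relatives tested, 1 was higher and 1 lower in SMCs, and 1 was higher in PDGFR-β+ cells. Vegfd with Scr was thus above every PDGF ligand in both cell types, at 414 ± 99.8 TPM in PDGFR-β+ cells.

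Among related receptor tyrosine kinases and co-receptors, Kit was at most 0.597 TPM in any library and Flt3 was listed at 0. In SMCs 2 of 6 tested were higher, the VEGF receptors Flt1 (10.7 to 17.0 TPM, log2 fold change 0.61, adjusted p = 0.0113, limma) and Kdr (0.663 to 2.88 TPM, 1.22, adjusted p = 0.00234). The Scr mean of Kdr was under the 1 TPM cut, so Kdr was tested only through its siKlf4 libraries. In PDGFR-β+ cells 1 of 7 tested was higher and 3 lower. Nrp1, which encodes a semaphorin and VEGF co-receptor, fell there from 149 ± 2.35 to 56.5 ± 6.75 TPM (-1.39, adjusted p = 4.5e-05), while Nrp2 rose from 18.3 ± 2.33 to 38.0 ± 1.78 TPM (1.02, adjusted p = 3.1e-04). Csf1r, the macrophage colony-stimulating factor receptor, fell from 2.28 to 0.775 TPM (-0.87, adjusted p = 0.0138), and Lrp1, an endocytic receptor that binds PDGFR-β, was the third to fall (867 to 495 TPM, -0.83, adjusted p = 0.00620). The siKlf4 mean of Csf1r was under the 1 TPM cut, so Csf1r was tested only through its Scr libraries.

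Of the genes that process or hold PDGF ligands, 3 of 10 tested were higher and 1 lower in SMCs, and 2 of 9 were higher and 1 lower in PDGFR-β+ cells. Plau, the urokinase plasminogen activator that can release active PDGF-D, rose in both cell types, from 24.1 ± 3.40 to 41.5 ± 4.83 TPM in SMCs (log2 fold change 0.76, adjusted p = 0.00627, limma) and from 68.6 ± 4.03 to 122 ± 7.30 TPM in PDGFR-β+ cells (0.82, adjusted p = 2.2e-04). In SMCs the proprotein convertase Pcsk7 rose from 17.7 to 25.7 TPM (0.51, adjusted p = 0.00839), and A2m, a plasma protease inhibitor that binds PDGF, fell from 45.3 to 19.7 TPM (-1.17, adjusted p = 0.0169). In PDGFR-β+ cells St14, a membrane protease that can activate PDGF-C, rose from 0.821 to 1.62 TPM (0.52, adjusted p = 0.0452), and Hspg2, the basement-membrane proteoglycan perlecan, fell from 454 to 289 TPM (-0.65, adjusted p = 0.00881). The Scr mean of St14 was under the 1 TPM cut, so St14 was tested only through its siKlf4 libraries. Plat, which encodes the tissue plasminogen activator that cleaves PDGF-C, measured 53.6 and 43.4 TPM in SMCs and 50.3 and 58.2 TPM in PDGFR-β+ cells with Scr and siKlf4, and did not pass in either.

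Among genes that act at the receptors, 5 of 25 tested were higher and 1 lower in SMCs, and 12 of 25 higher and 2 lower in PDGFR-β+ cells. Rasa1, a GTPase-activating protein for RAS that binds PDGFR-β, rose in SMCs from 66.3 to 102 TPM (log2 fold change 0.62, adjusted p = 0.00274, limma), and Pik3cb, a catalytic subunit of PI3-kinase, from 6.41 to 10.1 TPM (0.57, adjusted p = 0.0147). In PDGFR-β+ cells the adaptors Crk (53.0 to 162 TPM, 1.59, adjusted p = 1.1e-05) and Nck2 (11.8 to 23.6 TPM, 0.94, adjusted p = 2.0e-04) rose. In the RAS-MAPK and PI3K-AKT core, 4 of 17 were higher and 1 lower in SMCs, and 1 of 17 was higher and 5 lower in PDGFR-β+ cells. Map2k1 (MEK1) rose in SMCs from 135 to 200 TPM (0.57, adjusted p = 0.00885), with Hras (0.49, adjusted p = 0.0202). The RAF kinase Braf fell in PDGFR-β+ cells from 33.1 to 23.0 TPM (-0.51, adjusted p = 0.00805), with Nras (-0.45, adjusted p = 0.00288) and Araf (-0.41, adjusted p = 0.00872).

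Genes that restrain the receptors were higher for 3 of 13 tested and lower for 1 in SMCs, and higher for 7 of 13 and lower for 1 in PDGFR-β+ cells. In SMCs the ubiquitin ligase Cbl (23.0 to 29.7 TPM, log2 fold change 0.35, adjusted p = 0.0344, limma), Errfi1 (205 to 261 TPM, 0.35, adjusted p = 0.00778) and the lipid phosphatase Inppl1 (75.3 to 94.98 TPM, 0.34, adjusted p = 0.0216) rose. In PDGFR-β+ cells the adaptor Sh2b3 rose from 12.9 ± 1.95 to 30.1 ± 1.95 TPM (1.17, adjusted p = 2.9e-04), with Lrig1 (33.4 to 53.4 TPM, 0.64, adjusted p = 0.0165) and the tyrosine phosphatase Ptpn1 (34.9 to 53.8 TPM, 0.61, adjusted p = 9.95e-04).

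Early genes that PDGF is known to induce were higher for 10 of 20 tested and lower for 0 in SMCs (median log2 fold change 0.71), and higher for 4 of 20 and lower for 5 in PDGFR-β+ cells (median 0.031). In SMCs the chemokine Ccl2 rose from 70.5 ± 41.7 to 407 ± 172 TPM (2.63, adjusted p = 0.0144, limma), Ctgf, a matricellular protein, from 554 ± 190 to 1268 ± 68.0 TPM (1.26, adjusted p = 0.0116), and the hyaluronan synthase Has2 from 10.4 ± 2.16 to 25.97 ± 8.74 TPM (1.20, adjusted p = 0.0172). Has2 rose in PDGFR-β+ cells as well, from 7.81 ± 0.362 to 32.6 ± 1.85 TPM (1.93, adjusted p = 9.6e-06), with Cxcl1 from 0.469 to 2.32 TPM (1.15, adjusted p = 0.0137), whereas Plaur, the urokinase receptor, fell from 56.3 to 27.9 TPM (-0.98, adjusted p = 3.8e-04). The Scr mean of Cxcl1 was under the 1 TPM cut, so Cxcl1 was tested only through its siKlf4 libraries. Many other signals induce these early genes, and PDGF signalling itself was not measured in these data.

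**Figure D4:**
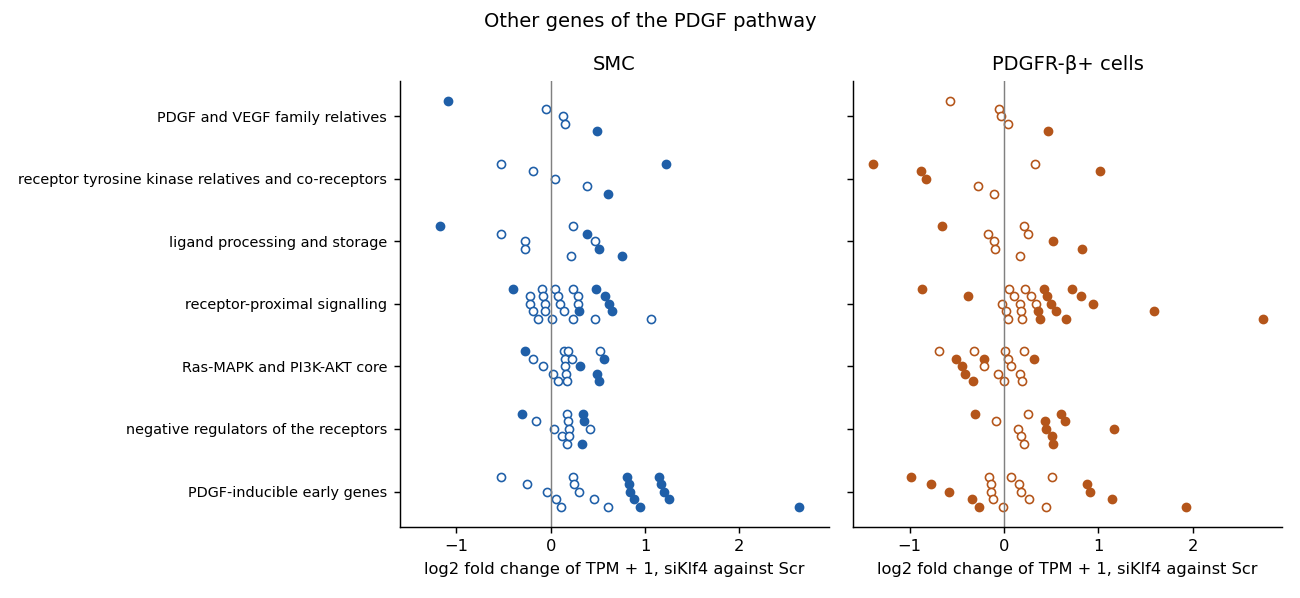
Log2 fold change of TPM + 1, siKlf4 against Scr, for the genes of 7 PDGF pathway lists tested in SMCs (left) and PDGFR-β+ cells (right). Each point is 1 gene and filled points passed an adjusted p under 0.05 (limma). Of 96 genes tested, 28 are filled to the right of 0 in each cell type, with 5 filled to the left in SMCs and 17 in PDGFR-β+ cells, and the early genes lie mostly to the right in SMCs.

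Some markers of cell type also differed with siKlf4. Smooth muscle markers were present in both cell types, with a summed level of 1509 to 2299 TPM with Scr and 3432 to 4204 TPM with siKlf4 in SMCs, where 7 of 8 tested were higher (Myh11 from 15.6 to 49.2 TPM, log2 fold change 1.57, adjusted p = 0.00119, limma). In PDGFR-β+ cells the sum was 5577 to 6428 TPM with Scr and 4736 to 5039 TPM with siKlf4. There 3 of 8 were higher (Myh11, Smtn and Lmod1) and 3 lower (Acta2, Tagln and Des). The sum in every PDGFR-β+ library was above that in every library labelled SMC, though the tables were made separately, and Myocd was under 1 TPM in every library of both. Acta2 and Tagln made up most of each sum. With siKlf4 the means of Myh11 (49.2 against 33.4 TPM), Smtn, Cnn1 and Des were larger in SMCs. Those of Acta2, Tagln, Lmod1 and Actg2 were larger in PDGFR-β+ cells. With Scr, of the markers tested, only Des had the larger mean in SMCs. In SMCs fibroblast markers summed to 4468 to 4845 TPM with Scr and 3396 to 3610 TPM with siKlf4. There 5 of 9 were lower and 1 higher. In PDGFR-β+ cells these sums were 3600 to 4508 TPM and 3062 to 4229 TPM, where 3 of 8 were lower and 0 higher. Collagen genes (Col1a1, Col1a2 and Col3a1) made up most of each sum. Among the other markers under Scr, Dcn averaged 409 TPM in SMCs against 71.2 TPM in PDGFR-β+ cells. Fbln1 stood at 41.5 against 8.57 TPM, Lum at 15.6 against 0.516 TPM and Tcf21 at 15.4 against 1.10 TPM. Mfap4, Inmt, Col1a2 and Col3a1 had the larger Scr mean in SMCs too, and Col1a1 the smaller (1108 against 1937 TPM). These levels were not tested between the cell types. Pericyte markers were low, summing to 27.6 to 32.6 TPM in SMCs and 32.4 to 59.0 TPM in PDGFR-β+ cells, with Higd1b at 0 in every library, Abcc9 under 1 TPM in every PDGFR-β+ library and Rgs5 at 1.71 to 2.84 TPM there. Of the pericyte markers, 1 of 6 tested was higher and 2 lower in SMCs, and 1 of 4 was higher and 1 lower in PDGFR-β+ cells. There Cspg4, which encodes NG2, fell from 26.9 to 6.00 TPM (-1.97, adjusted p = 3.4e-04) and Mcam, an adhesion molecule, rose from 9.18 to 18.9 TPM (1.01, adjusted p = 0.00618), while Notch3 measured 7.73 and 7.77 TPM under Scr and siKlf4 (adjusted p = 0.956). Endothelial markers summed to at most 5.19 TPM and epithelial markers to at most 1.37 TPM in any library, with Tie1 and Cldn5 at 0 in all 12. Macrophage and leukocyte markers summed to 24.4 to 49.8 TPM, mostly Cd14, Lyz2 and Cd68, with Tyrobp at 0 in all 12, and platelet markers to 3.08 to 11.9 TPM. Platelets and endothelium are known sources of PDGF-B. The part of these shifts in the values of the PDGF genes was not tested.

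On GRCm38 the genes lie apart from each other except that Pdgfa and Pdgfra share chromosome 5. Pdgfa (ENSMUSG00000025856.15) runs from 138976014 to 138997370 of chromosome 5 on the reverse strand, Pdgfra (ENSMUSG00000029231.15) from 75152292 to 75198215 of chromosome 5 on the forward strand, Pdgfb (ENSMUSG00000000489.7) from 79995874 to 80014977 of chromosome 15 on the reverse strand, and Pdgfc (ENSMUSG00000028019.9) from 81036416 to 81214040 of chromosome 3 on the forward strand. Pdgfd (ENSMUSG00000032006.15) runs from 6168584 to 6378850 of chromosome 9 and Pdgfrb (ENSMUSG00000024620.11) from 61045150 to 61085061 of chromosome 18, both on the forward strand. The antisense gene 6330403L08Rik shares 813 exon bases with Pdgfa. Its level was 8.99 ± 0.454 TPM with Scr and 7.95 ± 0.636 TPM with siKlf4 in SMCs (SD, n = 3, log2 fold change -0.16, adjusted p = 0.274, limma), while Pdgfa rose there. The libraries were made with a strand-specific method, and whether the counting used the strand is not given in the sources used here. The antisense genes Gm16000 over Pdgfc and Gm42802 over Pdgfra were at most 0.772 TPM in the mean of any group.

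No nearest protein-coding neighbour of Pdgfa or Pdgfc was called in the direction of that member in the cell type where the member was called. Prkar1b, 19.9 kb from Pdgfa, measured 59.7 and 51.2 TPM with Scr and siKlf4 in SMCs (log2 fold change -0.21, adjusted p = 0.0787, limma) and fell from 39.0 to 19.3 TPM in PDGFR-β+ cells (-0.98, adjusted p = 2.7e-04), and Gm5294 on the other side was listed at 0. Csf1r, 15.5 kb downstream of Pdgfrb, fell in PDGFR-β+ cells as Pdgfrb did, from a mean of 2.28 TPM to 0.775 TPM, which is under the 1 TPM cut. In SMCs Csf1r was under 1 TPM, while Cdx1 on the other side was at or near 0. Around Pdgfc, Glrb measured 1.061 to 1.92 TPM in the group means and did not pass, and Ctso, 718.6 kb away, fell in SMCs from 40.5 to 23.8 TPM (-0.73, adjusted p = 0.0190). Around Pdgfd, Casp12 fell in SMCs (-1.24, adjusted p = 0.00299) and rose in PDGFR-β+ cells (0.70, adjusted p = 0.00859), and Dync2h1 fell in SMCs (-0.54, adjusted p = 0.0212). Around Pdgfb, Cbx7 fell in SMCs (-1.07, adjusted p = 0.0146) and rose in PDGFR-β+ cells (0.80, adjusted p = 0.0169), and Rpl3 fell in SMCs (-0.45, adjusted p = 0.00571). Gsx2 and Kit, beside Pdgfra, were at or near 0.

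Genes of similar pattern were sought by Pearson correlation of log2(TPM + 1) over the 12 libraries after centring within each cell type. The search covered 11465 genes and is a description only, since the libraries share groups and scaling. Genes chosen this way tend to share the calls of the member, so those calls are no separate result. Copz1, a coatomer subunit, was nearest to Pdgfa (r = 0.980), followed by Uso1, a vesicle tether (r = 0.974), and Bex3 (r = 0.972). Like Pdgfa, these were called higher in SMCs, with log2 fold changes of 0.32, 0.37 and 0.79 (adjusted p = 0.00721, 0.00866 and 0.00101, limma), and not in PDGFR-β+ cells. Nearest to Pdgfrb were Pigk (r = 0.992), Arsa, which encodes arylsulfatase A (r = 0.975), and Olfr1033 (r = 0.967), all 3 called lower in PDGFR-β+ cells (log2 fold changes -0.25, -0.65 and -1.77, adjusted p = 0.0314, 0.00531 and 0.00593). In SMCs, where Pdgfrb did not pass, Arsa (-0.32, adjusted p = 0.0143, limma) and Olfr1033 (-0.83, adjusted p = 0.00906) were called lower as well. Pigk was not called there (-0.14, adjusted p = 0.162). Nearest to Pdgfra were Prkg1, a cGMP-dependent protein kinase (r = 0.993), the integrin subunit Itga1 (r = 0.975) and Emc2 (r = 0.970), none of which passed in either cell type. Mme, which encodes neprilysin (r = 0.937), Zfp772 (r = 0.932) and Crybg3 (r = 0.922) were nearest to Pdgfc, and Cnpy2 (r = 0.940), Fstl1 (r = 0.923) and Ammecr1 (r = 0.923) to Pdgfd.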

How the data were processed

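Bulk RNA-seq of 12 libraries was analysed, 3 for each of 4 groups. Per the study's methods, poly(A) RNA was made into strand-specific libraries, trimmed reads were aligned to mm10 with HISAT2 and the GENCODE annotation of mouse, and abundance was estimated with StringTie and ballgown. The authors deposited the values as TPM, in a separate table for each cell type, with replicates not pooled. Every library sums to the same total, so a rise of abundant genes lowers the values of others, and the depth of each library is unknown, which leaves the spread over 3 libraries as the measure of precision. The study tested counts with DESeq2, and that test was not used here because only TPM were analysed. Groups came from the labels, and 2 of the 6 SMC columns carry no replicate number and were assigned to their group alone.

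Values were tested as log2(TPM + 1) with limma 3.58.1 in R 4.3.3 (eBayes with a mean-variance trend, two-sided, Benjamini-Hochberg adjustment over all genes kept, those averaging 1 TPM or more, threshold 0.05). The effects of the cell types were compared with an interaction term, and ratios by exact permutation tests. The fits were tested on simulated data. Fold changes on the log2(TPM + 1) scale understate those of low genes. All 6 members and Klf4 are named. Other names are, for each pathway list and cell type, up to 3 genes with the largest change past the threshold and no overlap, the relatives of the ligands and receptors, neighbours, the 3 most similar genes for each member, and markers. Some genes that this rule names are not reported here. Lrp1, Plat and the antisense genes were added after their values were seen where these rules do not cover them. The members and lists were chosen with earlier results of these data known. Alternatives were another pseudocount, other filters, median-ratio scaling, quantile normalization, no trend, a joint fit, a replicate block (over numbered libraries, and, chosen after seeing the data, over 3 SMC pairs), a naming term, the numbered SMC libraries alone and leaving out each library. Positions are from GENCODE M21, and Pdgfb has version 6 of its identifier in the deposited tables. Among the markers, Itgam was not used here.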

Additional observations from a re-analysis of the deposited data

Results flagged for a closer look

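The response of Pdgfa to siKlf4 differed between the cell types by a log2 fold change of 0.82, SMC minus PDGFR-β+ (SE 0.12, adjusted p = 3.3e-04 for the interaction term, limma over 12 libraries). All 3 siKlf4 libraries of SMCs were above all 3 Scr libraries, whereas in PDGFR-β+ cells the groups overlapped. The knockdown of Klf4 also differed, by 1.19 on the log2 scale, and was less deep in SMCs. The cell types differ in source and culture as well, which cannot be told apart from cell type here. Groups of 3 libraries are too small for a test of single outlying libraries.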

How the results depend on the processing

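Pdgfa kept its call in SMCs, and its difference between the cell types, in every alternative and every fit without 1 library, with a log2 fold change in SMCs of 0.66 to 0.71 and a difference of 0.77 to 0.91 over the latter. The calls in PDGFR-β+ cells depended on the processing. Pdgfc was lost there with no filter on low values (log2 fold change 0.27, adjusted p = 0.05002), with median-ratio scaling (0.17), with quantile normalization (0.18), with the replicate block (0.27, adjusted p = 0.0585) and with both cell types in 1 fit (0.27, adjusted p = 0.112), and was between 0.21 and 0.30 with 1 library left out. Pdgfrb was lost with no filter (-0.41, adjusted p = 0.0569), and was between -0.53 and -0.33 with 1 library left out. Of the 5 members tested there, 0 passed with no filter and 1 with median-ratio scaling, quantile normalization, the replicate block or both cell types in 1 fit, and between 0 and 3 with 1 library left out. Without a filter more genes are adjusted over, and a fit without a library has fewer samples. The cause of the other changes was not tested. Median-ratio scaling moved the median log2 fold change of all genes in PDGFR-β+ cells from 0.097 to 0.0052 and the share of higher calls from 62.3% to 48.2%, and Pdgfra there from 0.090 to -0.011.

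In SMCs the count of members past the threshold rose from 1 to 2 with median-ratio scaling, quantile normalization or the replicate block and to 3 with the numbered libraries alone or the naming term, and was between 1 and 2 with 1 library left out. Pdgfrb passed with median-ratio scaling (-0.23), quantile normalization (-0.22), the replicate block (-0.27), the numbered libraries (-0.27) and the naming term (-0.21), and lay between -0.26 and -0.17 with 1 library left out. Pdgfra passed with the numbered libraries (-0.24) and the naming term (-0.25). Pdgfc in SMCs lay between -0.20 and 0.046, and Pdgfd in PDGFR-β+ cells between -0.65 and -0.32, with 1 library left out. Of the differences between the cell types, 2 passed with the replicate block and 3 with the naming term, and 1 to 2 with 1 library left out: Pdgfc with the naming term (-0.34), Pdgfra with the naming term (-0.34) and the replicate block (-0.33), and Pdgfrb between 0.12 and 0.32 with 1 library left out.

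The ratio of Pdgfra to Pdgfrb in SMCs, -0.042 on the log2 scale, was 0.032 in the numbered libraries and with the replicate block, and between -0.14 and 0.12 with 1 library left out. The percentage of receptor TPM from Pdgfra in SMCs moved by 0.51 points in the numbered libraries and with the replicate block, and between -2.15 and 1.82 points with 1 library left out. That of ligand TPM from Pdgfa in PDGFR-β+ cells moved between -1.94 and 2.15 points with 1 library left out. The alternatives for these percentages were chosen after seeing the data. Of the pathway genes in SMCs, 10 were lower in the numbered libraries against 5 in all. The deviations of same-numbered PDGFR-β+ libraries from their group means correlated at 0.073, -0.016 and 0.0043 over genes, so these numbers were not taken to pair them. In SMCs they correlated at 0.19 and 0.20 for the numbered and 0.36 for the unnumbered libraries, which is a hint of pairing from the data, since no number ties the last 2. A replicate block of these 3 SMC pairs, chosen after seeing the data, left 3 members past the threshold in SMCs, Pdgfa, Pdgfra (-0.25) and Pdgfrb (-0.21). For differences between the cell types, each replicate block also paired the PDGFR-β+ libraries by number, though their deviations gave no hint of pairing. With the 3 SMC pairs and these, 3 differences passed, Pdgfa, Pdgfc (-0.34) and Pdgfra (-0.34). With the replicate block the adjusted p of Pdgfa in SMCs was 0.0213. TPM give no depth, so the counting error of Pdgfb cannot be stated.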

Other observations

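Pdgfrl, which encodes a secreted PDGF receptor-like protein and is not among the members, was looked at after its values were seen. In SMCs it measured 11.7, 12.5 and 12.2 TPM under Scr, against 7.21, 4.36 and 6.28 TPM under siKlf4, and every siKlf4 library was below every Scr library (log2 fold change -0.94, SE 0.16, adjusted p = 0.00719, limma). In PDGFR-β+ cells it measured 8.24, 5.84 and 6.97 TPM under Scr, against 15.6, 10.4 and 11.8 TPM under siKlf4, and every siKlf4 library was above every Scr library (0.76, SE 0.17, adjusted p = 0.0108). Between the cell types the effects differed by -1.70, SMC minus PDGFR-β+ (SE 0.25, adjusted p = 4.4e-04, interaction term of limma), and it was -1.62 after median-ratio scaling and -1.85 with the numbered SMC libraries alone.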
